A study of Mus musculus with 25 samples.

Results

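The miR-101 family of the mouse was examined in small extracellular vesicles (sEVs, membrane-bound particles released by cells) prepared from liver. Its members were taken by name and not by level. They are mmu-miR-101a-3p, mmu-miR-101b-3p, mmu-miR-101c and mmu-miR-101a-5p, 4 of the 1493 entries in the deposited table of counts. All donors were wild-type C57BL/6J animals, in 5 age groups of 1 week, 6 weeks, 6 months, 12 months and 14 months, with 5 mice and 5 libraries per group, 1 library from each mouse. The labels state that males and females were present in equal shares, without naming the sex of any mouse, and their batch field repeats the age, so handling that differed between ages and age itself cannot be told apart. Frozen liver was taken apart with a kit made for human tumours, sEVs were pelleted by ultracentrifugation, and QIAseq miRNA libraries were read as pairs on a NovaSeq. A liver preparation of this kind holds vesicles from every cell type of the organ, and fewer vesicles of one origin cannot be told apart from less of a miRNA per vesicle.

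miRNAs are short RNAs that guide the Argonaute protein to messenger RNAs, mainly by pairing of the seed, bases 2 to 8 from the 5′ end, with sites in the 3′ untranslated region (UTR). miR-101 is known as a repressor of Ezh2, the enzyme of the Polycomb complex that methylates lysine 27 of histone H3, and of other growth genes, and it is reported to be lower in liver cancer than in normal liver. The 3p arm is the guide strand of the family, loaded into Argonaute, and the 5p arm is the passenger strand, most of which is lost after the duplex opens.

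The mature sequences are shown because the names hide how alike the entries are. They are RefSeq sequences on GRCm38.p6, written 5′ to 3′ with the seed in capitals, and a length in bases was the same in RefSeq and in the deposited table for each.
miR-101a-3p: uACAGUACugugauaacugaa
miR-101b-3p: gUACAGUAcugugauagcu
miR-101c: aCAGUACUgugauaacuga
miR-101a-5p: uCAGUUAUcacagugcugaugc
miR-101a-3p, of 21 bases, lies at chr4:101346957-101346977 on the minus strand, and miR-101b-3p, of 19 bases, at chr19:29135338-29135356 on the plus strand. miR-101c, also of 19 bases, was annotated at chr9:3038680-3038698 on the minus strand, and miR-101a-5p, of 22 bases, at chr4:101346993-101347014 on the minus strand. The sequence of miR-101c is bases 2 to 20 of miR-101a-3p, without its first and its last base. A read of those 19 bases therefore fits the Mir101a hairpin as well as miR-101c, and does not occur in the Mir101b hairpin. Between miR-101a-3p and miR-101b-3p 18 bases can be laid over each other, and 17 of them are equal. The exception is A16G, with positions counted from 1 at the 5′ end of miR-101a-3p. miR-101b-3p starts 1 base earlier than miR-101a-3p in the shared stretch and miR-101c starts 1 base later, so the annotated seeds of the 3 guide entries are the same run of bases shifted by 1.

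The hairpins show both arms, which are in capitals, of the RefSeq precursors on GRCm38.p6.
Mir101a: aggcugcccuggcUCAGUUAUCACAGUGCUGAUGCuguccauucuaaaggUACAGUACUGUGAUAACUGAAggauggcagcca
Mir101b: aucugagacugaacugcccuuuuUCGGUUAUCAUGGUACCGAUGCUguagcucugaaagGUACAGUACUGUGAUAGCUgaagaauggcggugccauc
Mir101a, at chr4:101346945-101347027 on the minus strand, overlaps an exon of the long noncoding RNA gene E130102H24Rik on the same strand in the GENCODE M21 annotation. Mir101b, at chr19:29135279-29135375 on the plus strand, lies in an intron of Rcl1, a gene for a protein of ribosomal RNA processing, on the same strand. The Mir101c precursor overlaps no other annotated gene. Of the 1095 entries with a miRNA name, 924 could be matched to a RefSeq mature sequence, and none outside the family has the seed of a member. The nearest relative by background knowledge is miR-144-3p, an erythroid miRNA at chr11:78073047-78073066 on the plus strand, which shares its first 7 bases with miR-101a-3p but differs in the last base of the seed.
miR-144-3p: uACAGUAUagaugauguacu

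The 3′ UTR of Ezh2, of 402 bases on the minus strand of chromosome 6 in GRCm38, holds the complement of the miR-101a-3p seed, GTACTGT, at bases 59 to 65 and again at bases 114 to 120. The surrounding 30 bases, with the match in capitals, are printed to show how the shifted seeds fall on them.
Ezh2, first match: ttcaggaaccttgaGTACTGTgggcaattt
Ezh2, second match: tctgaatttgcaaaGTACTGTaacagtaat
The first stretch is chr6:47530467-47530496 and the second chr6:47530412-47530441, both read on the minus strand. The complement of the miR-101c seed, AGTACTG, was found at both places, 1 base upstream, and that of the miR-101b-3p seed, TACTGTA, only at the second. These words were searched on the strand of the transcript, and they overlap each other. Among 1797 genes whose longest 3′ UTR was within 20% of that length, 2.73% held the word of miR-101a-3p, 2.67% that of miR-101b-3p and 2.06% that of miR-101c. A match describes letters only, and no messenger RNA was measured in this study.

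Library totals ran from 641579 to 6888928 counts. Those at 1 week lay between 2095925 and 6888928 counts, with 4 of the 5 at 2621883 or less, and every one was deeper than the libraries at 6 weeks, between 641579 and 1738208. Levels are given as counts per 1000000 (CPM) scaled with TMM factors, which correct for differences in library composition, and means carry the SD over 5 mice. Of the 4 entries, 3 passed the filter on low counts and were among the 391 entries tested, and miR-101a-5p did not. The 5 hepatocyte markers, led by miR-122-5p, held between 64.4% and 74.4% of all counts in every library, and no marker of the 7 cell type lists was at 0 over the series.

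The guide entries were abundant and the passenger arm was rare. Averaged over the 25 libraries, miR-101b-3p ranked 22 and miR-101a-3p ranked 23 among the named miRNAs, miR-101c ranked 75 and miR-101a-5p ranked 361. Together the 4 entries held 0.631% ± 0.106 of counts at 1 week, 0.849% ± 0.118 at 6 weeks and 0.910% ± 0.160 at 6 months, then 0.941% ± 0.0912 at 12 months and 0.914% ± 0.141 at 14 months. If reads that fit more than 1 entry were counted under each, these sums hold such reads more than once and overstate the share of the family. All shares are of counts per entry name, not divided by length.

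miR-101a-3p, the main guide product of Mir101a, had 2004, 1805, 1692, 2701 and 1615 CPM in the 5 libraries at 1 week. At 6 weeks the values were 3618, 3549, 4025, 4499 and 4490.3 CPM, and at 6 months 4635, 4293, 5047, 4569 and 4825 CPM. At 12 months they were 4225, 3861, 5452, 5655 and 5735 CPM, and at 14 months 4775, 4597, 5793, 5089 and 5754 CPM. On this scale every 1-week library lay below every library of the other ages, while the libraries at 6 months, 12 months and 14 months overlapped. The lowest mean was at 1 week, 1963 ± 437 CPM, followed by 4036 ± 456 at 6 weeks and 4674 ± 282 at 6 months, then 4986 ± 876 at 12 months and 5202 ± 551 at 14 months.

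miR-101c had 87.1, 73.8, 61.3, 140.3 and 53.8 CPM at 1 week. At 6 weeks it had 248, 245, 263, 253 and 286 CPM, and at 6 months 368, 364, 356, 332 and 429 CPM. At 12 months it had 309, 419, 444, 385 and 476 CPM, and at 14 months 426, 314, 429, 394 and 539 CPM. In scaled CPM the libraries of 1 week, 6 weeks and 6 months formed bands that did not overlap, and from 6 months onward the ranges overlapped. Its mean CPM was 83.3 ± 34.3 at 1 week, 259 ± 16.6 at 6 weeks and 369.9 ± 36.1 at 6 months, then 406 ± 64.0 at 12 months and 420.3 ± 81.0 at 14 months.

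miR-101b-3p, the guide product of Mir101b, followed miR-101a-3p library by library. Its mean CPM was 2053 ± 464 at 1 week, 4294 ± 478 at 6 weeks and 4977 ± 288 at 6 months, then 5299.7 ± 930 at 12 months and 5490.5 ± 587 at 14 months. In the 25 libraries its log2 ratio to miR-101a-3p stayed between 0.045 and 0.098. How the authors assigned reads that fit both entries is not given in the sources used here, so the pair is not counted as 2 independent results.

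**Figure D1:**
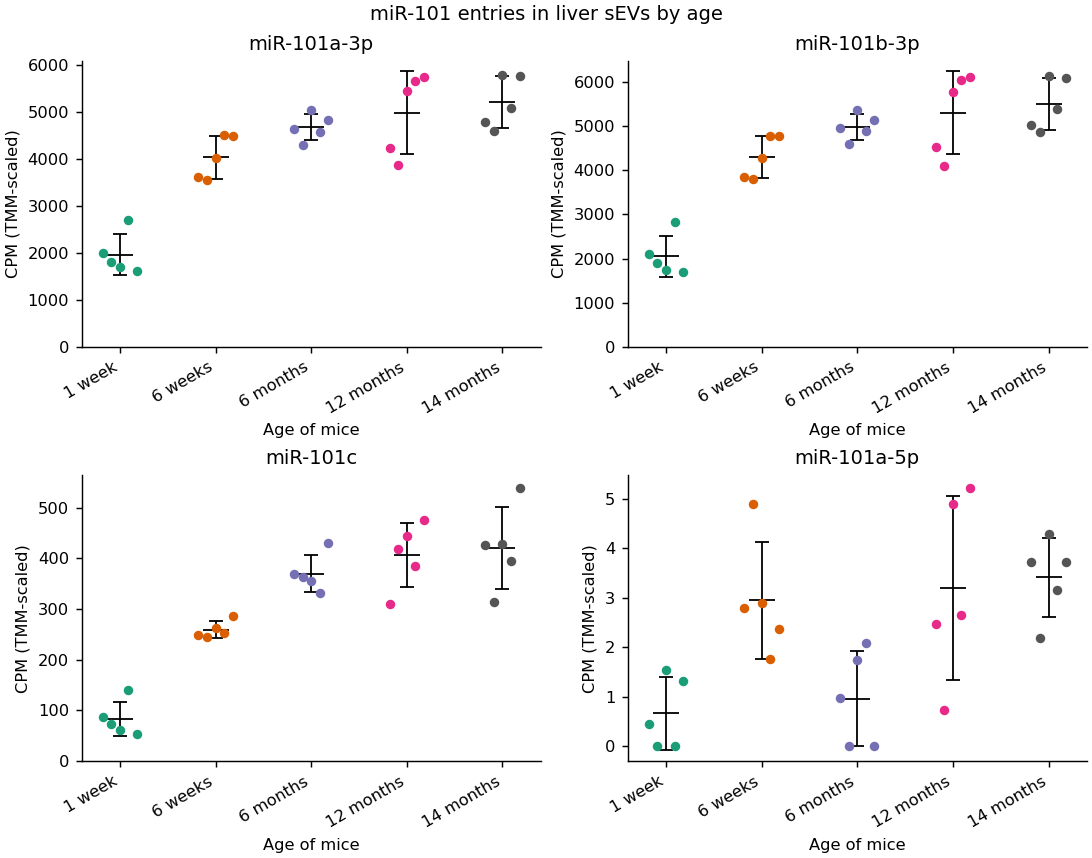
Levels of the 4 miR-101 entries in CPM (TMM-scaled) at the 5 ages, 1 panel per entry. Points are libraries, and the long dash with its error bar is the mean ± SD of 5 mice. For miR-101a-3p the means are 1963 CPM at 1 week and 4036 CPM at 6 weeks, with smaller steps after that, and the miR-101a-5p points lie below 6 CPM.

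Over the 5 ages all 3 tested entries differed by the edgeR quasi-likelihood F test, with adjusted p = 1.26e-08 for miR-101a-3p, 1.05e-08 for miR-101b-3p and 1.31e-09 for miR-101c. Of all tested entries, 75.4% passed that test, so a call over the 5 ages is common in this series.

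At 6 weeks against 1 week, a span that covers weaning, the 3 guide entries rose. miR-101a-3p was higher at 6 weeks by a log2 fold change of 1.04 ± 0.14 (SE, adjusted p = 4.02e-07), a 2.06-fold difference. miR-101b-3p was higher by 1.06 ± 0.14 (adjusted p = 2.98e-07), a 2.09-fold difference. miR-101c was higher by 1.64 ± 0.20 (adjusted p = 1.00e-07), a 3.12-fold difference. In scaled CPM, all 5 libraries at 6 weeks lay above all 5 at 1 week in each of the 3. Read against the background these counts are not unusual: 71.9% of tested entries were called in this comparison, 35.0% as higher and 36.8% as lower, and 28.6% had all 5 libraries at 6 weeks above all 5 at 1 week. In signed log2 fold change, miR-101a-3p lay above 68.0% of tested entries and miR-101c above 80.8%. By size in either direction they ranked 254 and 180 of the 391.

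The size of the rise depended on the scaling, since the TMM factors were 1.30 to 1.79 at 1 week and 0.719 to 1.08 at the other ages. By share of raw counts, miR-101a-3p held 0.399% ± 0.0570 at 6 weeks and 0.302% ± 0.0492 at 1 week, and miR-101c held 0.0255% ± 0.00197 at 6 weeks and 0.0127% ± 0.00412 at 1 week. By raw share the ages overlapped for miR-101a-3p, with 0.339% to 0.468% at 6 weeks and 0.249% to 0.351% at 1 week, and for miR-101b-3p, and only miR-101c kept all 5 libraries at 6 weeks above all 5 at 1 week. With library totals alone in place of TMM factors the log2 fold changes were 0.40 (adjusted p = 0.0142) for miR-101a-3p, 0.42 (adjusted p = 0.00942) for miR-101b-3p and 1.01 (adjusted p = 8.75e-05) for miR-101c. With DESeq2 size factors they were 0.58, 0.60 and 1.18. These choices move all entries together, by -0.66 for library totals and by -0.46 for DESeq2 size factors at the median. Relative to the median of all tested entries the rise was 0.92 for miR-101a-3p, 0.95 for miR-101b-3p and 1.52 for miR-101c under TMM, and 0.94, 0.97 and 1.55 in the same order with library totals alone.

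Markers of other cells moved in the same comparison, where 35.0% of all tested entries were called higher and 36.8% lower. All 5 hepatocyte markers rose at 6 weeks in scaled counts, by a median log2 of 2.11, while their summed share of raw counts was 66.2% to 71.7% at 6 weeks, against 64.4% to 74.4% at 1 week. The markers of biliary epithelium fell in 5 of 5 cases and those of leukocytes in 4 of 5, and summed they held 0.0362% to 0.0482% (biliary) and 0.207% to 0.296% (leukocyte) of counts at 6 weeks, against 0.137% to 0.211% and 0.712% to 0.954% at 1 week. The erythroid markers fell in 4 of 5 cases, of which miR-486a-5p and miR-486b-5p have the same values and are 1 measurement, and held 0.0170% to 0.0536% at 6 weeks, against 0.0640% to 0.148% at 1 week. Of the muscle markers both tested members fell. Of the endothelial and the stellate and smooth muscle lists 1 of 2 and 2 of 5 rose, not unusual beside 35.0% of all tested entries. None of these lists had a member at 0 over the series, and their part in the miR-101 difference was not tested.

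**Figure D2:**
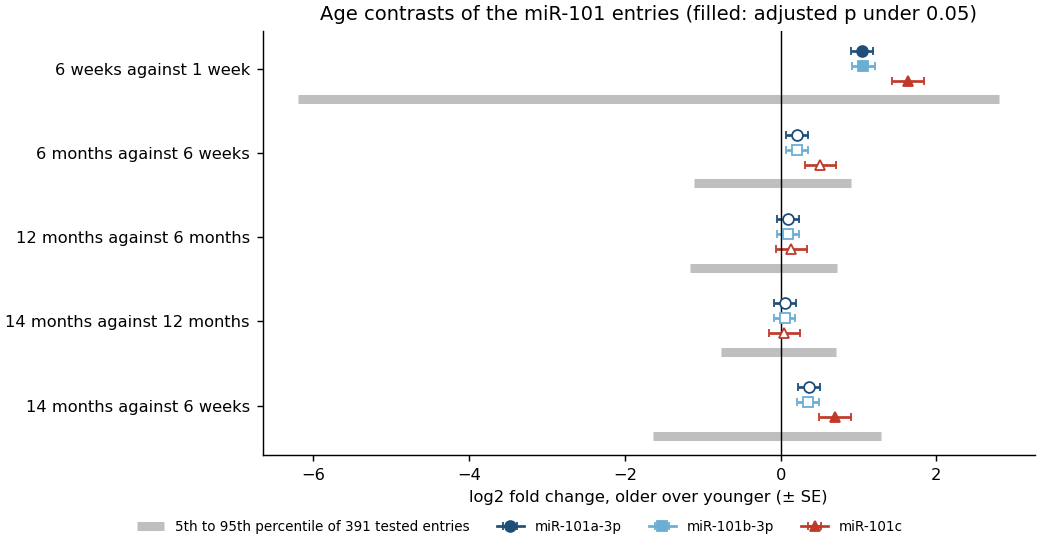
Log2 fold change, older over younger, with its SE for the 3 tested miR-101 entries in 5 comparisons of ages. Filled symbols have an adjusted p under 0.05, and the grey bar spans the 5th to the 95th percentile of the 391 tested entries. The 3 symbols are filled for 6 weeks against 1 week, where they lie at 1.04, 1.06 and 1.64, and miR-101c alone is filled for 14 months against 6 weeks, at 0.70.

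Among adult ages the differences were small. At 6 months against 6 weeks the log2 fold change was 0.21 ± 0.14 for miR-101a-3p and also 0.21 ± 0.14 for miR-101b-3p (both adjusted p = 0.699), with 4 of 5 libraries at 6 months above every library at 6 weeks. miR-101c stood at 0.51 ± 0.20 with an unadjusted p of 0.0169 and an adjusted p of 0.333, so it did not pass. In scaled CPM all 5 of its libraries at 6 months lay above all 5 at 6 weeks, as they did for 2.81% of tested entries, where 1.02% were called higher. By raw share the ages overlapped, with 0.0256% at the lowest at 6 months against 0.0277% at the highest at 6 weeks. Fitted on these 10 libraries alone the difference was 0.44 with an adjusted p of 0.0346.

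At 12 months against 6 months the log2 fold changes were 0.093, 0.091 and 0.14 for miR-101a-3p, miR-101b-3p and miR-101c (each adjusted p = 0.908). edgeR called 0 entries of any kind there, 0.0% of those tested, with 28 at an unadjusted p under 0.05, and DESeq2 called 0. At 14 months against 12 months they were 0.061, 0.051 and 0.048 (each adjusted p = 1.0). edgeR again called 0 entries, 0.0%, with 8 at an unadjusted p under 0.05, and DESeq2 called 0. The 95% interval at 14 months against 12 months, not adjusted for the number of entries, was -0.21 to 0.34 for miR-101a-3p and -0.34 to 0.44 for miR-101c. A change within these limits was therefore not excluded, and the limits do not give the size of change that would be called.

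Across the longest adult span, 14 months against 6 weeks, miR-101c was higher by 0.70 ± 0.20 (adjusted p = 0.0471), a 1.62-fold difference. miR-101a-3p was 0.37 ± 0.14 higher (adjusted p = 0.135) and miR-101b-3p 0.35 ± 0.14 (adjusted p = 0.144), and neither passed. In all 3, in scaled CPM, every library at 14 months lay above every library at 6 weeks, as in 5.88% of tested entries, and 3.32% of entries were called higher and 3.84% in either direction. By raw share the ages overlapped for all 3, with miR-101a-3p at 0.366% to 0.539% at 14 months and 0.339% to 0.468% at 6 weeks, and miR-101c at 0.0269% at the lowest at 14 months against 0.0277% at the highest at 6 weeks. The call of miR-101c sat at the edge of the threshold. It was lost with DESeq2 size factors (0.66, adjusted p = 0.0774), with library totals alone (0.43, adjusted p = 0.192), and in 19 of 25 fits that left out 1 library (0.62 to 0.79, adjusted p = 0.0182 to 0.215). It held in DESeq2 (adjusted p = 0.0266) and in a fit of these 2 ages (adjusted p = 0.0123). Of the cell type lists, 1 of 5 hepatocyte markers rose in this comparison and no member of the other 6 lists passed. The comparisons against 6 weeks share its 5 libraries, so they are not separate evidence of low values at that age.

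**Figure D3:**
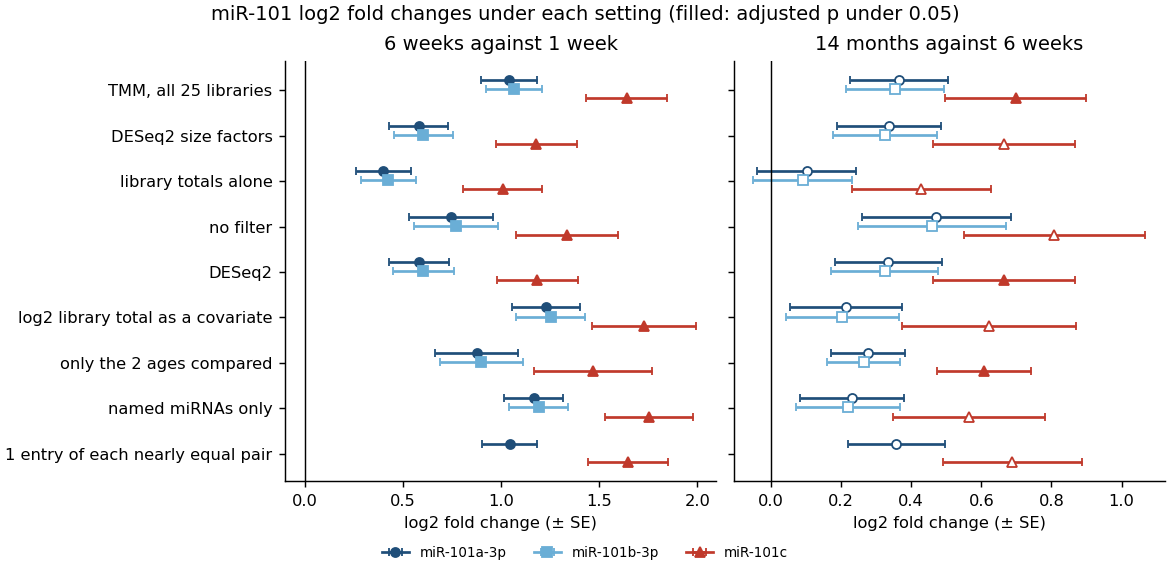
Log2 fold changes ± SE of the 3 tested miR-101 entries under each processing setting, for 6 weeks against 1 week (left) and 14 months against 6 weeks (right). Filled symbols have an adjusted p under 0.05. Every symbol on the left is filled, while on the right only miR-101c is filled, in 3 of 9 settings.

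Among the 20 adult libraries, depth moved with the scaled levels. Log2 CPM of miR-101a-3p correlated with log2 library total with Pearson's r = 0.836 (permutation test, adjusted p = 4e-05 over 4 relations) and Spearman's rho = 0.785 (adjusted p = 0.00014). Without the 2 libraries of most extreme depth r was 0.784, and within ages, after subtraction of each age's means, it was 0.742 (adjusted p = 0.00478). miR-101b-3p gave r = 0.832 with rho = 0.80, and r = 0.742 within ages. For miR-101c r was 0.736 (adjusted p = 0.000413) with rho = 0.726, 0.621 without the 2 extreme libraries and 0.582 within ages (adjusted p = 0.0253). These relations depend on the scaling. With the log2 share of raw counts in place of scaled CPM, a measure added after the data were seen, r was 0.309 for miR-101a-3p and 0.296 for miR-101b-3p (permutation test, adjusted p = 0.201 each over 3 relations) and 0.434 for miR-101c (adjusted p = 0.169), with rho = 0.263, 0.238 and 0.433. Within ages r was then 0.219, 0.218 and 0.127. With the log2 library total as a term in the model, miR-101c at 14 months against 6 weeks stood at 0.62 with an adjusted p of 0.338. The 1-week libraries were deeper than those at 6 weeks and, in scaled CPM, held the lowest levels. The cause of the difference between these 2 ages was not tested.

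**Figure D4:**
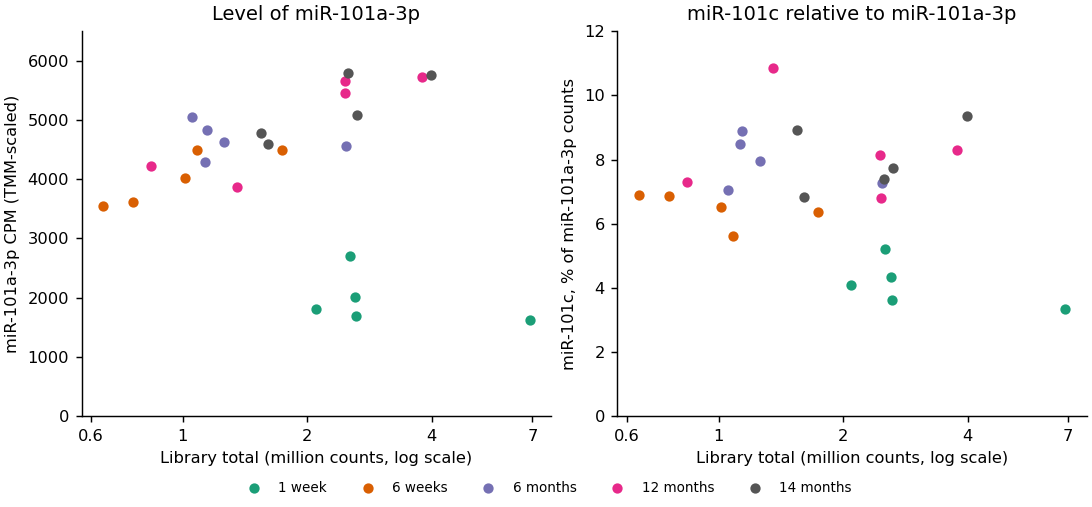
Library total (log scale) against the level of miR-101a-3p in CPM (left) and against miR-101c counts as a percent of miR-101a-3p counts (right), 1 point per library, coloured by age. Among the 20 adult libraries r is 0.836 on the left, for scaled CPM, and 0.275 on the right, where the library total was on a log2 scale, and the 1-week libraries lie apart below them.

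Ratios within a library do not depend on the scaling, and they separated miR-101c from miR-101a-3p. Counts of miR-101c were 4.35%, 4.09%, 3.62%, 5.20% and 3.33% of those of miR-101a-3p in the libraries at 1 week, and 6.87%, 6.90%, 6.52%, 5.63% and 6.37% at 6 weeks. They were 7.95%, 8.47%, 7.06%, 7.27% and 8.90% at 6 months, 7.31%, 10.8%, 8.15%, 6.80% and 8.29% at 12 months, and 8.92%, 6.83%, 7.40%, 7.74% and 9.37% at 14 months. The first 3 ages did not overlap, and the later ages overlapped each other.

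The mean share was 6.46% ± 0.515 at 6 weeks against 4.12% ± 0.722 at 1 week, a rise of 2.34 points (exact two-sided permutation test, p = 0.00794, the smallest that 5 against 5 allows, adjusted p = 0.0238 over 15 tests). At 6 months it was 7.93% ± 0.780 against 6.46% ± 0.515 at 6 weeks, a rise of 1.47 points (exact p = 0.00794, adjusted p = 0.0238). The share at 12 months was 8.28% ± 1.56, 0.353 points above 6 months (exact test, adjusted p = 0.808), and at 14 months 8.05% ± 1.06, a difference of -0.229 points to 12 months (exact test, adjusted p = 0.825). At 14 months against 6 weeks the difference of 1.59 points missed the threshold (exact p = 0.0238, adjusted p = 0.0510), and it passed when mouse 17 of 12 months (adjusted p = 0.0446, through the other tests of the family) or mouse 22 of 14 months (adjusted p = 0.0340) was left out. Among adults the share showed a correlation with depth of r = 0.275 and rho = 0.329 (permutation test, adjusted p = 0.244 and 0.158), of 0.105 without the 2 extreme libraries and of -0.086 within ages (adjusted p = 0.794). Since miR-101c is a stretch of miR-101a-3p, whether these counts came from Mir101c or from shorter products of Mir101a cannot be told apart in counts per name.

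miR-101b-3p counts were close to, and always above, those of miR-101a-3p. The ratio was 103.2% to 105.0% at 1 week, 106.1% to 106.8% at 6 weeks and 106.2% to 106.8% at 6 months, then 105.8% to 107.0% at 12 months and 105.2% to 105.7% at 14 months. It rose by 1.90 points at 6 weeks against 1 week (exact permutation test, adjusted p = 0.0238), fell by 0.759 points at 14 months against 12 months and fell by 0.871 points at 14 months against 6 weeks (exact tests, adjusted p = 0.0238 each). In those 3 comparisons the libraries of the 2 ages did not overlap. The treatment of reads that fit both entries is not given in the sources used here. A change of Mir101b against Mir101a therefore cannot be told apart from read assignment in counts per name. As a share of the summed counts of the 4 entries, the difference turned round at 6 weeks against 1 week, to -0.115 points (exact test, adjusted p = 0.503), and at 6 months against 6 weeks, to -0.308 points (exact test, adjusted p = 0.0298), where the ratio had differed by 0.0895 points (adjusted p = 0.768). With that denominator the fall at 14 months against 12 months was no longer called (-0.128 points, exact test, adjusted p = 0.799), and the fall at 14 months against 6 weeks was (-0.573 points, exact test, adjusted p = 0.0298). The surplus of miR-101b-3p over miR-101a-3p summed to 2235, 1370, 1884, 3064 and 2953 counts at the 5 ages in order, beside 1930, 1366, 2255, 4006 and 4344 counts of miR-101c. In these sums miR-101c thus lay below the surplus at 1 week, was nearly equal to it at 6 weeks and exceeded it from 6 months on.

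**Figure D5:**
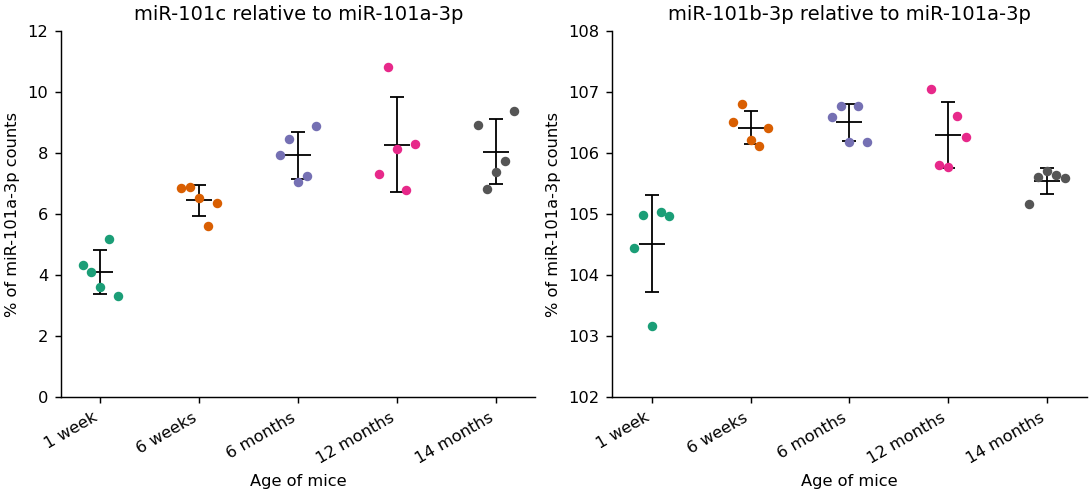
Counts of miR-101c (left) and miR-101b-3p (right) as a percent of miR-101a-3p counts in the same library, at the 5 ages. The right axis does not start at 0. Points are libraries, and the long dash with its error bar is the mean ± SD of 5 mice. The miR-101c means are 4.12% at 1 week, 6.46% at 6 weeks and 7.93% at 6 months, with overlapping ages after that, while the miR-101b-3p panel spans only 103.2% to 107.0%.

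The passenger arm miR-101a-5p had 113 counts in all 25 libraries, against 200704 for the guide arm of the same hairpin. At 1 week the 5 libraries had 2, 0, 6, 0 and 14 counts, at 6 weeks 2, 3, 3, 2 and 4, and at 6 months 1, 0, 2, 4 and 0. At 12 months they had 2, 1, 11, 5 and 16 counts, and at 14 months 5, 3, 10, 6 and 11. In the 4 libraries without a count the level lay under a floor of 3 counts, 0.803 and 0.911 CPM at 1 week and 2.80 and 2.88 CPM at 6 months. Mean CPM was 0.664 ± 0.731 at 1 week, 2.95 ± 1.18 at 6 weeks and 0.964 ± 0.967 at 6 months, then 3.19 ± 1.86 at 12 months and 3.42 ± 0.798 at 14 months.

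Relative to miR-101a-3p the passenger arm made up 0.0203% ± 0.0205 at 6 months against 0.0759% ± 0.0378 at 6 weeks (exact permutation test, p = 0.0159, adjusted p = 0.0397 over 15 tests). This fall rests on 7 counts at 6 months and 14 at 6 weeks, and it was lost in 8 of the fits that left out 1 library, without mouse 6, 7, 8 or 10 of 6 weeks or mouse 11, 12, 13 or 15 of 6 months (adjusted p = 0.0680 to 0.0794). The other 4 comparisons of this ratio did not pass, with adjusted p = 0.104 for 12 months against 6 months. In a fit without the filter on low counts, edgeR gave a log2 fold change of 1.69 ± 0.80 for miR-101a-5p at 6 weeks against 1 week (adjusted p = 0.123) and an adjusted p of 0.0531 over the 5 ages. With at most 16 counts in a library, single counts weigh on every comparison of this arm.

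Likeness to miR-101a-3p was measured as the root mean square difference of log2 CPM after each miRNA was centred on its own mean, among 138 other named miRNAs above 50 CPM. The median of these was 0.605 over the 25 libraries. The pattern of miR-101b-3p differed by 0.0118 and that of miR-101c by 0.415. Outside the family the smallest differences were 0.210 for miR-30a-3p, 0.235 for miR-100-5p, 0.236 for miR-30e-3p, 0.238 for miR-191-5p, 0.245 for let-7d-5p and 0.245 for miR-99a-5p. Over the 20 adult libraries, with a median of 0.311, the closest were let-7g-5p (0.146), miR-30a-3p (0.146), miR-30c-5p (0.152) and miR-30e-3p (0.157), beside 0.0067 for miR-101b-3p and 0.214 for miR-101c. These libraries share depth and scaling, and the values are descriptions of pattern only.

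Other miRNAs with a reported part in Ezh2 repression, the let-7 family, miR-98, miR-26, miR-124, miR-137, miR-138 and miR-214, were counted for comparison. Of 15 on the list, 14 were in the table and 13 were tested. Most of the 13 are let-7 entries of 1 family, so the members are not counted as independent results. At 6 weeks against 1 week 10 rose and 1 fell, with a median log2 fold change of 1.26 against 0.12 over all tested entries, of which 35.0% rose and 36.8% fell. The 4 most abundant were miR-26b-5p (0.85 ± 0.18, adjusted p = 0.000139), let-7a-5p (1.46 ± 0.14, adjusted p = 9.54e-10), let-7f-5p (1.54 ± 0.15, adjusted p = 1.06e-09) and let-7c-5p (1.21 ± 0.17, adjusted p = 6.55e-07). The member that fell was let-7i-5p, at -0.58 ± 0.15 (adjusted p = 0.000922), named after its value was seen. At 14 months against 6 weeks 1 of the 13 rose, miR-137-3p at 1.33 ± 0.35 (adjusted p = 0.0329), also named after its value was seen, and the median was 0.28 against -0.038 over all tested entries, of which 3.32% rose.

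A second list held miRNAs reported, like miR-101, to be lower in liver cancer than in normal liver. All 16 were tested, and at 6 weeks against 1 week 10 rose and 3 fell, with a median log2 fold change of 0.94, beside 35.0% and 36.8% of all tested entries and their median of 0.12. Its most abundant members were miR-122-5p (0.56 ± 0.12, adjusted p = 0.000196), the main miRNA of hepatocytes, miR-192-5p (2.27 ± 0.21, adjusted p = 9.14e-10), and miR-29c-3p and miR-29a-3p (3.58 ± 0.33 each, adjusted p = 6.38e-10 and 6.40e-10), repressors of collagen genes that share a seed. Of the 16, 3 rose at 14 months against 6 weeks, with a median of 0.37, beside 3.32% of all tested entries and their median of -0.038. They were miR-29a-3p (1.44 ± 0.30, adjusted p = 0.00443), miR-29c-3p (1.44 ± 0.30, adjusted p = 0.00443) and miR-29b-3p (1.82 ± 0.25, adjusted p = 2.09e-05), the last named after its value was seen. All 3 are miR-29 entries. The mean CPM of miR-29a-3p and miR-29c-3p over the 25 libraries was nearly equal, at 11249 and 11331. These 2 are therefore not independent results in either comparison, and the counts of risers on this list include both.

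miR-144-3p, which shares most of the miR-101a-3p seed and is also one of the erythroid markers, moved the other way between the youngest ages. Its log2 fold change was -1.91 ± 0.36 at 6 weeks against 1 week (adjusted p = 4.07e-05), where the guide entries of miR-101 rose. It was 0.067 ± 0.35 at 14 months against 6 weeks (adjusted p = 0.907).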

How the data were processed

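miRNA was counted in sEVs from 25 mouse livers. The authors deposited 1 table of raw counts with 1493 entries, of which 1095 carry a miRNA name and 398, holding 0.0836% of counts, are called unconservative. Per the submitters' processing notes, Bowtie, edgeR and the build mm10 were used. Versions, mismatches allowed, the treatment of reads that fit several entries, and whether reads or unique molecular identifiers were counted are not given in the sources used here.

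Counts were fitted with edgeR 4.0.16 in R 4.3.3: filterByExpr kept 391 entries (1102 were not tested), libraries were scaled with TMM factors, and 1 robust quasi-likelihood model of all 25 libraries was used for an F test of age and for 5 contrasts. Benjamini-Hochberg adjustment ran over all tested entries in each, with a threshold of 0.05, and the biological coefficient of variation was 37.6%. The SE of a log2 fold change was derived from its F statistic and is approximate. The steps were tested on simulated data. Ratios within libraries were tested by exact two-sided permutation (scipy 1.17.1), adjusted over 15 tests, and depth with 100000 permutations. DESeq2 1.42.0, other scalings, filters and sets of entries, and leaving out each library were alternatives. A fold change uses the older age on top. In comparisons of ages the p-values set a difference against the spread between mice, and they cannot separate age from handling that differed between ages. Floors of 3 counts cover counting error only.

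Within an age no library repeated another, since chi-squared per degree of freedom was at least 12.1 in the 50 pairs. Libraries of different ages were not compared in this way. In 21 pairs of entries, miR-101a-3p with miR-101b-3p among them, counts were nearly equal in every library. Named were the 4 members, the 6 miRNAs (4 among adults) nearest to miR-101a-3p, and the 4 most abundant members of each list. The members and the lists were chosen with earlier results of these data known.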

Additional observations from a re-analysis of the deposited data

Results flagged for a closer look

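At 14 months the miR-101b-3p count was 105.2% of the miR-101a-3p count in mouse 21, below the other 4 libraries of that age, which lay close together. The gap was 0.788 of the whole range, above Dixon's 95% critical value of 0.71. Of 35 groups examined in this way this was the only one past the value, and chance alone gives about 1 in 20.

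miR-101b-5p, the passenger arm of Mir101b, is in the deposited table but not among the members, and had 60 counts summed over the 25 libraries. It exceeded 3 counts, the limit that a count of 0 allows in a library, in 5 libraries, while 20 had 3 or fewer and 7 of these had none. RefSeq gives it on GRCm38.p6 at chr19:29135302-29135324 on the plus strand, and its sequence is printed with the seed in capitals because it is the second passenger arm of the family.
miR-101b-5p: uCGGUUAUcaugguaccgaugcu
Summed over the 5 libraries of an age, it had 11 counts at 1 week, 3 at 6 weeks and 5 at 6 months, then 24 at 12 months and 17 at 14 months. They were not tested between ages.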

How the results depend on the processing

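No paired analysis was possible because no mouse number occurs at more than 1 age. The F tests over the 5 ages and the 3 calls at 6 weeks against 1 week held under every setting run. Leaving out 1 library in turn, the log2 fold change at 6 weeks against 1 week was 0.98 to 1.24 for miR-101a-3p, 1.00 to 1.27 for miR-101b-3p and 1.52 to 1.96 for miR-101c. At 14 months against 12 months it was -0.023 to 0.10, -0.034 to 0.094 and -0.092 to 0.13 in that order. With library totals alone the 3 values were -0.036, -0.046 and -0.071, and miR-101c was at -0.012 in the fit of those 2 ages, all uncalled. miR-101c at 6 months against 6 weeks was called only in the fit of those 2 ages (0.44).

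The call of miR-101c at 14 months against 6 weeks was lost with DESeq2 size factors (0.66), library totals alone (0.43), no filter (0.81, adjusted p = 0.0911), library total as a covariate (0.62), named miRNAs only (0.56, adjusted p = 0.160) and 1 entry of each nearly equal pair (0.69, adjusted p = 0.0528). Without 1 library it was 0.62 to 0.79, and the call was kept without mouse 4, 5 or 27 of 1 week, 15 of 6 months, 16 of 12 months or 22 of 14 months. The cause was not tested. With share of raw counts in place of scaled CPM, the correlation with depth among adults was 0.309 for miR-101a-3p, 0.296 for miR-101b-3p and 0.434 for miR-101c, no longer past the threshold.

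Calls at 6 months against 6 weeks numbered 7, against 3 with library totals alone, 3 with the covariate and 1 to 13 without 1 library (1 without mouse 14, 2 to 4 without mouse 6, 7, 8, 9, 11, 12, 15, 16, 17, 20, 21, 24 or 25, and 13 without mouse 27). At 12 months against 6 months they numbered 0, and 3 without the filter. At 14 months against 6 weeks they numbered 15, against 24 without the filter, 7 with the covariate, 28 in the fit of 2 ages, 9 among named miRNAs and 8 to 22 without 1 library, with 8 without mouse 23, 24 or 25. At 6 weeks against 1 week the split of higher and lower calls was 137 and 144, against 88 and 178 with library totals alone and 107 and 165 with DESeq2 size factors, and at 14 months against 6 weeks 13 and 2, against 6 and 5 with library totals alone.

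As a share of the 4 summed entries, miR-101b-3p differed by -0.115 points at 6 weeks against 1 week, -0.308 points at 6 months against 6 weeks (exact permutation test, adjusted p = 0.0298) and -0.128 points at 14 months against 12 months. Without 1 library, the miR-101c percent of miR-101a-3p differed by -0.287 to 0.723 points at 12 months against 6 months, -0.599 to 0.411 at 14 months against 12 months and 1.26 to 1.90 at 14 months against 6 weeks. The miR-101a-5p percent differed by -0.0648 to -0.0401 points at 6 months against 6 weeks, 0.0332 to 0.0512 at 12 months against 6 months (called without mouse 17, adjusted p = 0.0340), -0.00622 to 0.0118 at 14 months against 12 months and -0.0198 to 0.00485 at 14 months against 6 weeks. Outside the fits without 1 library, 191 results under alternatives were taken as unchanged. For a test this means the same side of the threshold and, where it has one, the same direction. Counts of calls have neither, and their smaller shifts are among the 191. Of the rest, 10 lost the call, 1 gained it, 6 reversed direction, and 7 were counts of calls that moved. Depth limits the passenger arm most, at 0 to 16 counts per library.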
